A study of Mus musculus with 78 samples.

Results

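The 41 genes described here work in meiosis and in the germline. They were taken by name, 41 of the 54446 genes in the RNA-seq tables, and their RNA was followed in mouse embryonic stem cells (mESCs) that lost the heterochromatin corepressor TRIM28. They comprise 5 genes of the synaptonemal complex, 5 of the chromosome axis and of meiotic cohesin, 8 of meiotic recombination, 14 of the piRNA pathway and of transposon control in germ cells, 3 RNA regulators of germ cells, and 6 genes of meiotic entry and of later germ cells. All 41 are annotated as protein coding and all 41 have a row in the TT-SLAM-seq table.

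TRIM28-FKBP mESCs are V6.5 cells whose TRIM28 carries a degradation tag, from a line derived from picked colonies. Adding 500 nM dTAG-13 leads to proteolysis of the tagged protein, and DMSO is the vehicle. Polyadenylated RNA was sequenced from 3 libraries per group, one group in DMSO and one for each exposure to dTAG-13 (2 h, 6 h, 24 h or 96 h). The names of the DMSO libraries say 0 h, while the treatment text of the labels gives 24 h in DMSO, and neither matches 96 h, so that longer treatment and longer culture cannot be told apart at 96 h. TT-SLAM-seq, which reads RNA made during a short pulse of 4-thiouridine, had the same layout without the 96 h group. For ChIP-seq, vehicle and 24 h groups held 3 libraries with antibodies to H3K9me3 or H3K27Ac and 2 with antibodies to RNAPII or MED23. The shREPEATS line is a V6.5 line with the same degron and with shRNAs, switched on by doxycycline (Dox), against endogenous retroviruses (ERVs), and its total RNA was sequenced, 3 libraries per group, under vehicle alone, under 24 h of dTAG-13 and under both agents. For that line the group names carry Dox for the third group only, whereas the treatment text of the labels gives Dox before treatment for every group. Untreated parental V6.5 mESCs without the tag and neural progenitor cells (NPCs) in DMSO had 3 libraries each. Nothing in the labels says that the 3 libraries of a group came from separate cultures, so p-values measure only the spread between these libraries.

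In meiosis, homologous chromosomes are cut, paired and exchanged while cohesin and axis proteins hold them and the synaptonemal complex zips them together. The piRNA pathway uses PIWI proteins, loaded with small RNAs, and Tudor-domain scaffolds to silence transposons in germ cells, much as TRIM28 and H3K9me3 do in ESCs. Outside the germline many of these genes are held off by DNA methylation and by the PRC1.6 complex, which reaches promoters through E2F6 and the pair MGA and MAX, and ESCs in serum express some of them at low level.

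Promoters were examined for the letters that those factors are known to bind. RefSeq (GRCm38.p6) windows from 250 bases before to 50 after the annotated start were at hand for 37 of the 41 genes, without Piwil2, Spo11, Tdrd6 and Tex15. The word TCCCGC, the E2F6 site, was found on either strand in 16 of 37 genes (43.2%), against 22.05% of 27025 genes, and CACGTG, the E-box bound by MGA and MAX, in 14 of 37 (37.8%), against 8.09%. Both words occurred in 8 genes (21.6%, against 2.65%), which were Ddx4, Hormad1, Mael, Slc25a31, Stag3, Syce2, Sycp1 and Sycp3. Neither word contains the other. A gene counted when any of its windows held the word. The 27025 genes were not restricted to protein-coding genes, whereas the genes described here are all protein coding. The windows of these genes were also richer in CpG, with a median of 19 CpG and 60.7% GC against 7 CpG and 52.7% GC, and the part of base composition in the shares of either word was not tested. The 4 windows below belong to genes whose RNA moved most against DMSO in the time course, and capitals mark either word, on either strand. They lie at chr3:95559427-95559726 on the plus strand for Hormad1, chr6:34920698-34920997 on the plus strand for Stra8, chr17:35046573-35046872 on the minus strand for Msh5 and chr11:121145893-121146192 on the plus strand for Tex19.1.
Hormad1: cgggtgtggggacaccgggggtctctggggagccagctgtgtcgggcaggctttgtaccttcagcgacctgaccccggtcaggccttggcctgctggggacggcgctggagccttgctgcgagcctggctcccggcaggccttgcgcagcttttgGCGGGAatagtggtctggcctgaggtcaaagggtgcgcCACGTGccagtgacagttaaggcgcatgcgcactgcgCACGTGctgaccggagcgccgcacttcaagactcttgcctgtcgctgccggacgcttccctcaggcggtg
Stra8: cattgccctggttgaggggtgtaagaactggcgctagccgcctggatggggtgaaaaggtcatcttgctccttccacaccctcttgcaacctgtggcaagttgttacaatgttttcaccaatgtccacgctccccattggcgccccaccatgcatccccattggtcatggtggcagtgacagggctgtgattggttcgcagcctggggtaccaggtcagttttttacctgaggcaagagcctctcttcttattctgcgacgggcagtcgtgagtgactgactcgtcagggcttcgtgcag
Msh5: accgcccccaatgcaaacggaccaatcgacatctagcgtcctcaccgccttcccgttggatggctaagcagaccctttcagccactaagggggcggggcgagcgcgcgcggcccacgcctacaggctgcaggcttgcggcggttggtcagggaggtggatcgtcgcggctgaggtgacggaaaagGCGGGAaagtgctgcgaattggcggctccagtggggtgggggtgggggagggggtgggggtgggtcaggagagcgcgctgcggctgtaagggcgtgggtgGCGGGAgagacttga
Tex19.1: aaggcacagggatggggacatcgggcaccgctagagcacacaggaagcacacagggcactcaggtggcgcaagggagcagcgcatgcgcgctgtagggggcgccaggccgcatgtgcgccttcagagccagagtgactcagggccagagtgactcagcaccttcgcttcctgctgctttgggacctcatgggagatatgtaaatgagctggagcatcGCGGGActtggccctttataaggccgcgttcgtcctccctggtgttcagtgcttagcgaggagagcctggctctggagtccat

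Hormad1 held TCCCGC, read as its reverse complement, at -95 and CACGTG at -57 and -20 from the start. Msh5 held TCCCGC at -65 and 35, and Tex19.1 held it at -33, each as the reverse complement. Neither word was found in the window of Stra8, whose RefSeq start lies 785 bases from the start used in the RNA-seq tables. The windows of Hormad2 and Piwil4, next by size of change and not printed, held neither word. A match is a description of these letters and not a measured site.

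RNA levels were read as TPM, which is scaled by transcript length and by library. Coverage at 1 TPM, a measure of depth, ran from 0.719 to 3.80 reads per base over the RNA-seq libraries, the lowest in 24 h replicate 1. In TT-SLAM-seq the reads used for scaling ran from 6478940, in 24 h replicate 3, to 24246533 per library. Trim28 RNA, which the degron does not target directly, was 624 ± 2.28 TPM (SD, n = 3) in DMSO, 372 ± 9.18 at 24 h and 192 ± 10.2 at 96 h. In parental mESCs it was higher than in the tagged line in DMSO, at 1398 ± 17.6 TPM. In the total RNA of the shREPEATS line in DMSO it was 270 ± 16.0 TPM. The labels of the cells were checked with marker genes. The summed level of 7 ESC markers was 1786 to 1855 TPM in DMSO, 1007 to 1097 at 24 h and 200.3 to 225.9 at 96 h, and 6 NPC markers summed to 66.3 to 67.5 TPM in the DMSO mESCs and to 3320 to 3364 in NPCs, where Pou5f1 and Zfp42 stayed below 0.1 TPM in every library.

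Germline genes were not silent in mESCs. In DMSO, 16 of the 41 had a mean of at least 10 TPM, 15 lay between 1 and 10 TPM and 10 were below 1 TPM. Their median was 4.93 TPM, against 3.13 for all 21918 protein-coding genes in the tables, and 75.6% of them reached 1 TPM against 58.2% of protein-coding genes. Tex19.1 (ENSMUSG00000039329.8, chr11:121146143-121148319), which restrains retrotransposons in germ cells and placenta, had the highest mean, with 91.1, 101 and 91.3 TPM in the 3 libraries. Syce2, a central element of the synaptonemal complex, followed with 82.6, 85.9 and 71.5 TPM. Zcwpw1, a reader of the histone marks laid by PRDM9, had 32.7, 32.9 and 35.3 TPM and all 3 libraries lay above those of Ddx4, the germ cell helicase known as VASA, at 30.1, 28.3 and 27.4 TPM. Below these stood the cohesin subunit Stag3 at 24.3 ± 4.04 TPM (SD, n = 3), Hormad1 at 18.7 ± 1.93, Piwil2 at 18.2 ± 0.621 and Dmc1 at 17.4 ± 0.746, and in this order the ranges of Ddx4 and Stag3 overlapped, as did those of Hormad1, Piwil2 and Dmc1.

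At the other end, 8 genes were too low to be tested in the time course (at least 1 TPM in at least 3 of its 15 libraries was required). They were Spo11, which makes the breaks of meiotic recombination, Mei1, Msh4, Piwil1, Tdrd6, Tdrd9, Asz1 and Tex101, with means in DMSO from 0.0504 TPM (Asz1) to 0.698 TPM (Tex101). Of these, Mei1 had 0.438, 0.344 and 0.534 TPM in DMSO, 0.852, 1.08 and 0.910 TPM at 24 h and 0.0473, 0.0413 and 0.137 TPM at 96 h, without overlap between the 3 groups. Msh4, the partner of MSH5, had 0.417, 0.164 and 0.253 TPM in DMSO, 0.695, 0.768 and 0.586 at 24 h and 0.134, 0.0904 and 0.115 at 96 h, again apart. These are descriptions of low values without a test.

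**Figure D1:**
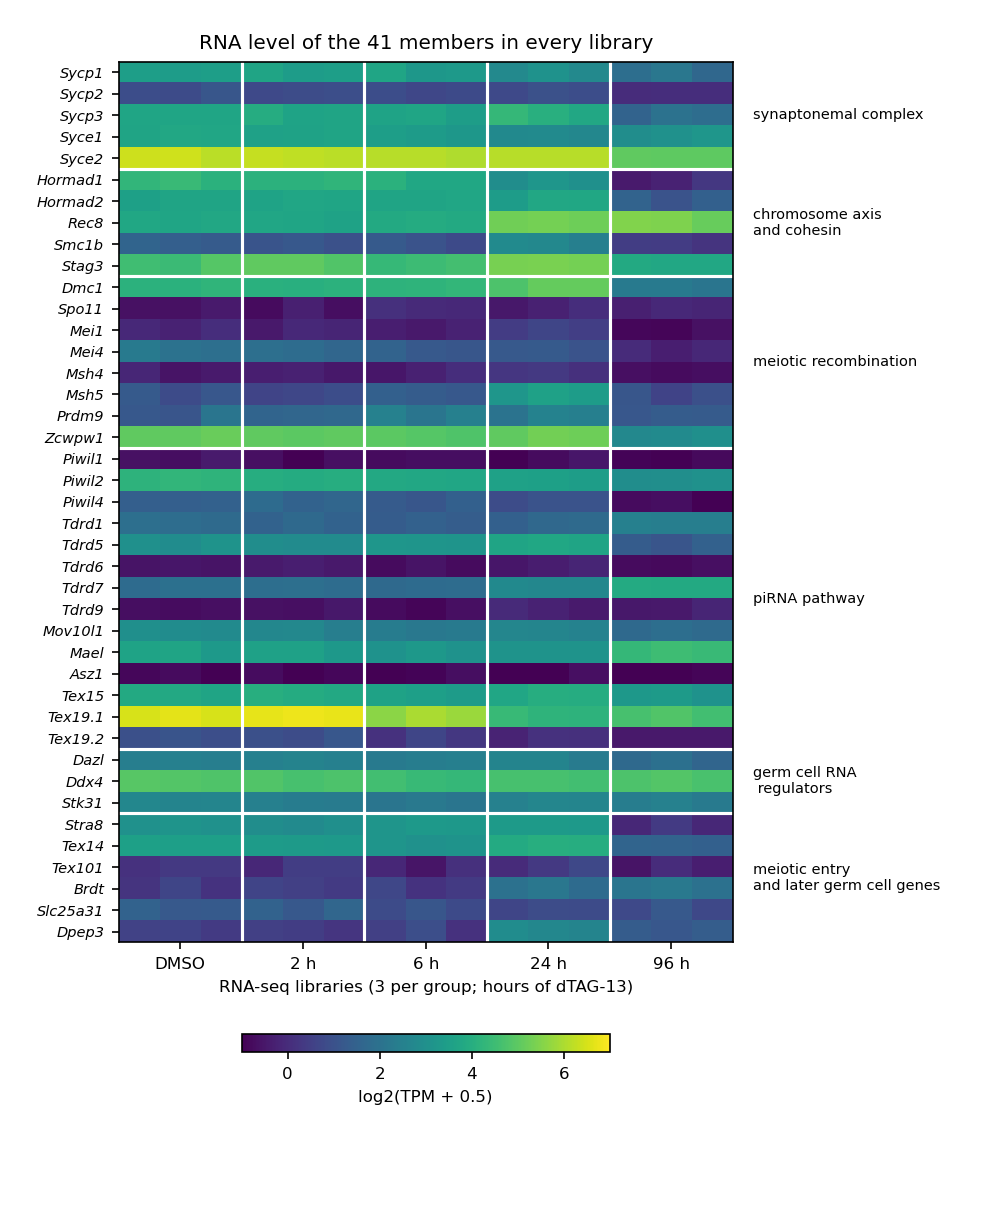
Level of each of the 41 germline and meiosis genes in the 15 libraries of the RNA-seq time course, as log2(TPM + 0.5), with genes grouped by role from top to bottom and libraries grouped by exposure from left to right. Tex19.1 and Syce2 have the highest values in DMSO, at means of 94.3 and 80.0 TPM, and most genes are darkest in the 3 libraries at 96 h.

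The first comparison asks what happened to steady-state RNA of these genes as TRIM28 was lost. Genes were compared with limma on log2(TPM + 0.5), and a gene was called at an adjusted p (Benjamini-Hochberg, over 17922 genes) below 0.05 with a change of more than 2-fold on that scale. At 2 h none of the 33 tested germline genes was called by limma (7 had an unadjusted p below 0.05, against 5147 of all 17922 genes), where 0.251% of all genes were called higher and 0.123% lower. At 6 h again none was called (18 had an unadjusted p below 0.05, against 7762 of all genes), against 0.776% higher and 0.19% lower of all genes. No test on counts was possible for these libraries, whose tables hold no reads. Without the size limit, 15 of the 33 had an adjusted p below 0.05 with lower values at 6 h and 1 with higher values, where 15.5% and 18.4% of all genes did. The median log2 change of the 33 at 6 h was -0.21, against 0.03 for all genes. The single one above DMSO was Prdm9, the methyltransferase that places recombination hotspots, with 1.80, 1.67 and 3.80 TPM in DMSO and 5.16, 3.82 and 5.07 TPM at 6 h (log2 change 0.89 ± 0.22 SE, adjusted p = 0.00649 by limma), and it was the 1 gene called when DMSO replicate 3 or 6 h replicate 2 was left out. The lowest changes were those of Mei4 (log2 change -0.78) and Tex19.1 (-0.76), the latter with 94.3 ± 5.42 TPM in DMSO and 55.8 ± 7.37 TPM at 6 h (SD, n = 3), both with an adjusted p below 0.05 and short of the size limit. Centring each library on its median left 92 genes higher and 44 lower of all genes at 6 h, in place of 139 and 34.

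After 24 h of dTAG-13 the genes moved both ways. Of 33 tested, 5 were called higher (Msh5, Dpep3, Brdt, Rec8 and Smc1b) and 2 lower (Hormad1 and Tex19.1), where 10.1% of all genes were called higher and 2.01% lower. Their median log2 change was 0.02, against 0.13 for all genes. Libraries centred on their own median, which takes 0.29 off each log2 change at 24 h, gave 4 higher, now without Smc1b, and 5 lower, now with Mei4, Syce1 and Tex19.2, and over all genes this moved 1819 higher and 360 lower to 886 and 919. Of the 33 genes, the 3 treated libraries lay wholly above the 3 in DMSO for 12 and wholly below for 14, where 43.9% and 26.2% of all genes did so. Counts by role at 24 h were 2 higher and 1 lower of 5 axis and cohesin genes, 1 higher of 5 tested recombination genes, 2 higher of 5 tested genes of meiotic entry and later germ cells, 1 lower of 10 tested piRNA pathway genes, and none of 5 synaptonemal complex genes and of 3 RNA regulators (4 and 1 of which had an unadjusted p below 0.05 by limma, against 12582 of all 17922 genes).

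Msh5 (ENSMUSG00000007035.15, chr17:35028605-35046745), whose product stabilises crossover intermediates, had 1.89, 1.26 and 1.74 TPM in DMSO and 8.61, 11.4 and 10.3 TPM at 24 h. That was a log2 change of 2.32 ± 0.16 (SE, adjusted p = 1.51e-08 by limma), the largest rise among these genes at 24 h. All 3 treated libraries lay above all 3 controls. At 96 h Msh5 was back at 1.69, 1.03 and 1.44 TPM, which overlapped the DMSO libraries.

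Dpep3, a membrane dipeptidase of the testis, had 1.00, 1.04 and 0.784 TPM in DMSO and 6.87, 6.02 and 5.55 TPM at 24 h (log2 change 2.20 ± 0.17 SE, adjusted p = 5.21e-08 by limma). Brdt, the bromodomain protein of the testis, had 0.664, 1.11 and 0.623 TPM in DMSO and 3.50, 3.96 and 2.96 TPM at 24 h (1.63 ± 0.17, adjusted p = 1.01e-06). In both genes the groups stood apart. Brdt then stayed up, at 3.78, 4.17 and 3.47 TPM at 96 h, while Dpep3 was at 2.01, 1.75 and 2.09 TPM.

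Of the 3 cohesin genes 2 rose at 24 h, and the third, Stag3, missed the size limit. Rec8, the kleisin subunit of meiotic cohesin, had 12.9996, 12.5 and 13.3 TPM in DMSO and 37.7, 39.9 and 37.3 TPM at 24 h (log2 change 1.53 ± 0.07 SE, adjusted p = 8.18e-10 by limma). Smc1b had 2.51, 2.19 and 1.94 TPM in DMSO and 6.64, 6.16 and 4.96 TPM (1.24 ± 0.14, adjusted p = 2.94e-06). Stag3 had 22.8, 21.2 and 28.9 TPM in DMSO and 40.3, 41.9 and 39.3 TPM at 24 h, with a log2 change of 0.74. The treated libraries were above the controls for each of the 3 genes.

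Hormad1 (ENSMUSG00000028109.14, chr3:95559677-95587671), a HORMA-domain protein of unsynapsed chromosome axes, went the other way from the cohesin genes. It had 18.6, 20.7 and 16.9 TPM in DMSO and 7.01, 8.63 and 7.54 TPM at 24 h (log2 change -1.23 ± 0.16 SE, adjusted p = 8.82e-06 by limma). Tex19.1 was at 20.5, 17.8 and 17.7 TPM at 24 h (log2 change -2.31 ± 0.09, adjusted p = 1.26e-10). It was the strongest fall of the 33 at 24 h, and its libraries did not overlap those of DMSO.

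**Figure D2:**
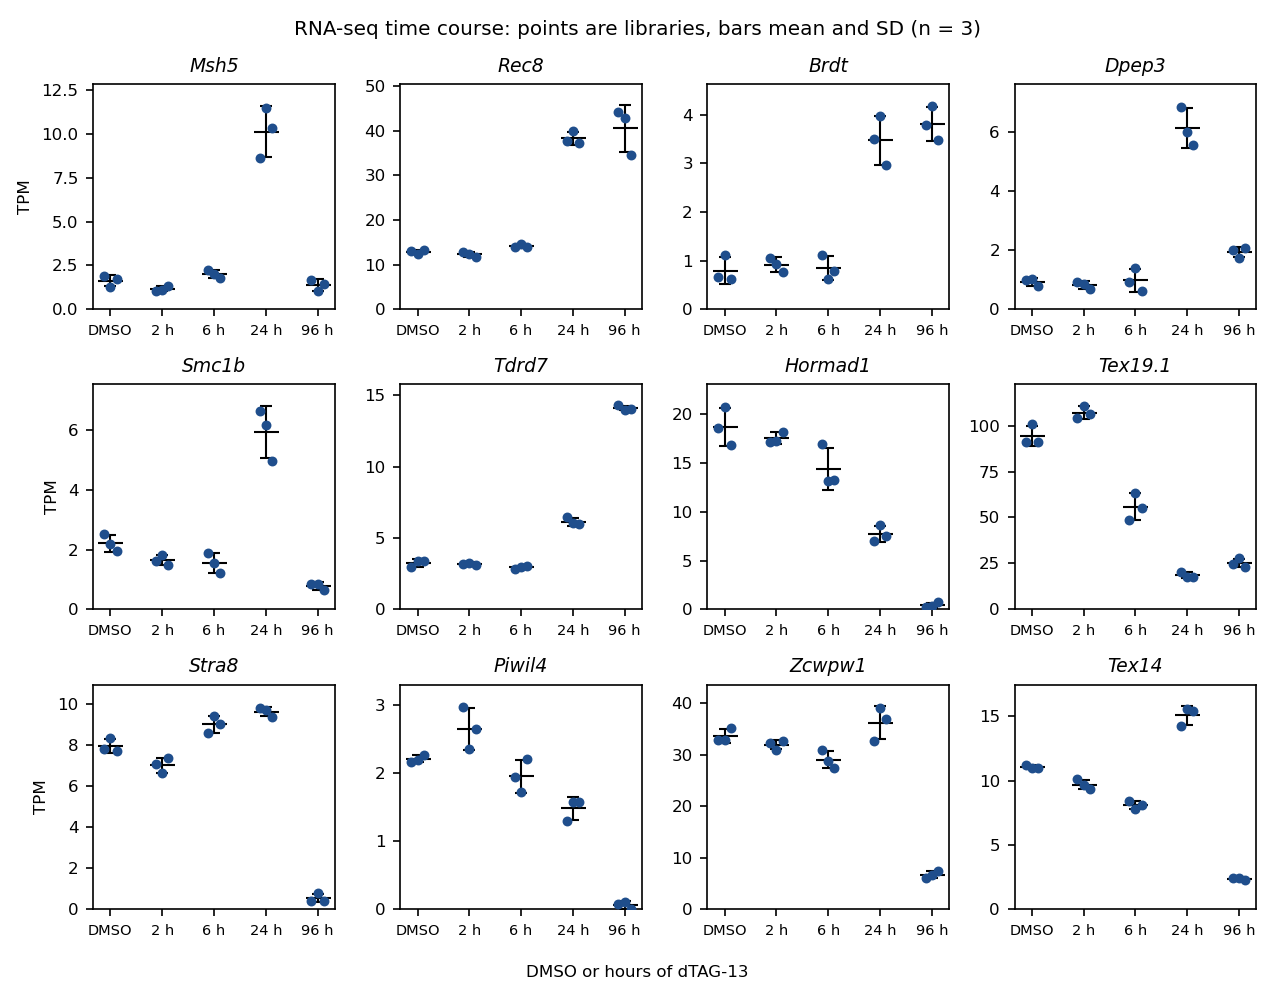
TPM in each library of the time course, on a linear axis from 0, for 12 germline genes, with points for libraries and bars for mean and SD (n = 3). Msh5, Dpep3 and Smc1b peak at 24 h, Rec8 and Brdt are high at 24 h and 96 h, and Hormad1 goes from a mean of 18.7 TPM in DMSO to 0.444 TPM at 96 h.

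By 96 h most of the tested genes had fallen. Of 33, 17 were called lower and 3 higher, where 12.4% of all genes were called lower and 20.3% higher. Their median log2 change was -1.08, against 0.05 for all genes, and centring, which takes 0.28 off each change, gave 19 lower and 3 higher, while over all genes it moved 3634 higher and 2228 lower to 2713 and 3364. The 3 libraries at 96 h lay wholly below DMSO for 23 of the 33 and wholly above for 6, where 38.8% and 44.4% of all genes did so. All roles but the RNA regulators had called genes, with 3 lower of 5 synaptonemal complex genes (Sycp1, Sycp3 and Syce2), 3 lower and 1 higher of 5 axis and cohesin genes, 3 lower of 5 tested recombination genes (Dmc1, Mei4 and Zcwpw1), 6 lower and 1 higher of 10 tested piRNA pathway genes (lower Piwil2, Piwil4, Tdrd5, Mov10l1, Tex19.1 and Tex19.2), and 2 lower and 1 higher of 5 tested genes of meiotic entry and later germ cells. None of the 3 RNA regulators Dazl, Ddx4 and Stk31 was called by limma, though 2 had an unadjusted p below 0.05, as did 14552 of all 17922 genes.

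Hormad1 fell furthest, to 0.247, 0.346 and 0.7401 TPM (log2 change -4.38 ± 0.16 SE, adjusted p = 3.23e-12 by limma). Stra8 (ENSMUSG00000029848.11, chr6:34920163-34939344), which retinoic acid induces at the entry to meiosis, had 7.85, 8.35 and 7.73 TPM in DMSO and 9.83, 9.72 and 9.41 TPM at 24 h, and then 0.426, 0.782 and 0.426 TPM at 96 h (-3.04 ± 0.11 against DMSO, adjusted p = 2.62e-12). Every 24 h library of Stra8 lay above DMSO and every 96 h library below, whereas Hormad1 was already lower at 24 h. Hormad2, the relative of Hormad1, had 11.3, 12.2 and 12.4 TPM in DMSO, 10.2, 13.5 and 12.97 TPM at 24 h and 2.40004, 1.57 and 2.23 TPM at 96 h (-2.29 ± 0.12, adjusted p = 1.47e-10). Its 24 h libraries overlapped DMSO and its 96 h libraries lay below every other.

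Of 5 tested recombination genes 3 fell. Zcwpw1 was at 6.17, 6.62 and 7.46 TPM at 96 h (log2 change -2.24 ± 0.07 SE, adjusted p = 1.29e-12 by limma). Mei4, needed for break formation, had 4.44, 3.55 and 3.32 TPM in DMSO and 0.487, 0.292 and 0.427 TPM at 96 h (-2.24 ± 0.14, adjusted p = 1.49e-09). Dmc1, the strand-exchange recombinase of meiosis, had 17.3, 16.7 and 18.2 TPM in DMSO, 26.5, 33.8 and 34.1 TPM at 24 h and 4.45, 4.33 and 3.86 TPM at 96 h. It was therefore above DMSO at 24 h, below the size limit, and called lower at 96 h (-1.93).

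Among piRNA genes, Piwil4, the nuclear PIWI protein MIWI2, had 2.17, 2.20 and 2.28 TPM in DMSO and 0.0819, 0.114 and 0 TPM at 96 h (log2 change -2.27 ± 0.12 SE, adjusted p = 2.32e-10 by limma). Piwil2, also known as MILI, was at 17.7, 18.9 and 18.0 TPM in DMSO and 7.16, 7.23 and 7.80 TPM at 96 h (-1.24). Tex14, a protein of the bridges between germ cells, had 11.2, 11.0 and 11.0 TPM in DMSO and 2.47, 2.43 and 2.26 TPM at 96 h (-2.00 ± 0.06, adjusted p = 4.18e-13). The libraries of each of the 3 genes at 96 h lay below all those in DMSO.

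Against this fall stood 3 genes. Tdrd7 (ENSMUSG00000035517.17, chr4:45965334-46034761), a Tudor-domain scaffold that is also used in the lens, had 2.95, 3.39 and 3.41 TPM in DMSO, 6.47, 6.02 and 5.95 TPM at 24 h and 14.3, 13.97 and 14.05 TPM at 96 h (log2 change at 96 h 1.96 ± 0.07 SE, adjusted p = 2.85e-12 by limma). Rec8 was at 44.2, 42.9 and 34.6 TPM and Brdt at the values given above, with log2 changes of 1.61 and 1.75. Mael, a germ granule protein, had 11.9, 12.2 and 9.61 TPM in DMSO, 8.17, 8.19 and 8.10 at 24 h and 19.6, 22.2 and 20.9 TPM at 96 h, and its log2 change of 0.87 against DMSO missed the size limit. The remaining calls at 96 h were Sycp3 (-1.90), Tex19.1 (-1.88), Tdrd5 (-1.70), Sycp1 (-1.54), Tex19.2 (-1.44), Syce2 (-1.30), Mov10l1 (-1.10) and Smc1b (-1.08), and the call of Smc1b was lost without DMSO replicate 1 or 96 h replicate 3, at -0.9998 and -0.9964.

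Compared directly, 96 h against 24 h gave 16 lower and 2 higher of 33, where 16.5% of all genes were called lower and 13.7% higher. Stra8 (log2 change -3.30 ± 0.11 SE, adjusted p = 1.60e-12 by limma), Hormad1 (-3.15), Dmc1 (-2.76 ± 0.09, adjusted p = 1.10e-12), Msh5 (-2.50), Tex14 (-2.43), Tdrd5 (-2.40), Zcwpw1 (-2.34) and Smc1b (-2.32) fell most. The call of Prdm9 (-1.08) was lost without 24 h replicate 2, at -0.98. Tdrd5, a Tudor-domain protein of pachytene piRNAs, had 12.4, 13.03 and 12.3 TPM at 24 h and 2.01, 1.67 and 2.28 TPM at 96 h, and Smc1b had 0.864, 0.844 and 0.646 TPM at 96 h. Mael (1.31) and Tdrd7 (1.14) were the 2 called higher. Both time points share the DMSO libraries, and by call Brdt and Rec8 were higher at both, Hormad1 and Tex19.1 lower at both, Smc1b higher and then lower, Msh5 and Dpep3 higher at 24 h only, Tdrd7 higher at 96 h only and 14 lower at 96 h only, which leaves 11 called at neither time.

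**Figure D3:**
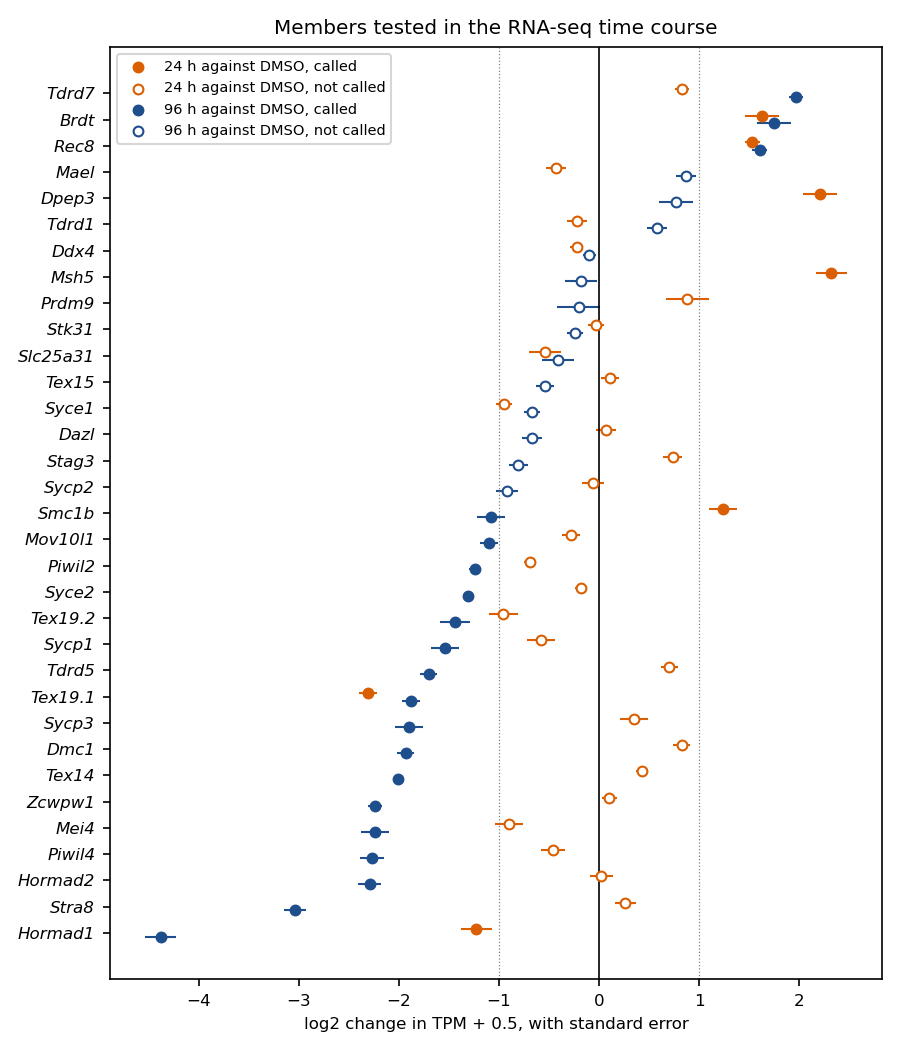
Log2 change of TPM + 0.5 at 24 h (orange) and at 96 h (blue) against the same DMSO libraries, with standard errors, for the 33 tested germline genes ordered by their change at 96 h. Filled points are called and open points are not, dotted lines mark the 2-fold limit, and Hormad1 is at the bottom (-4.38 at 96 h) and Tdrd7 at the top (1.96).

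Markers of other cell states moved with these changes. At 24 h 3 of 7 ESC markers were called lower (Klf4, Zfp42 and Pou5f1), the feeder marker Postn (log2 change 1.29, of 6 tested) and the NPC marker Olig2 (1.65, of 4 tested) were called higher, and none of 8 tested endoderm and 5 tested 2-cell-like markers was called by limma (6 and 2 had an unadjusted p below 0.05). At an adjusted p below 0.05 alone, 1 of the 4 NPC markers was higher and 2 were lower, with a median log2 change of -0.27. Of the 6 feeder markers 3 were higher and 1 lower by that rule, with a median of 0.26. Over all 17922 genes, 1819 were called higher and 360 lower at 24 h, and 12582 had an unadjusted p below 0.05. At 96 h all 7 ESC markers were called lower, to a sum of 200.3 to 225.9 TPM. Of 4 tested NPC markers 1 was called lower and none higher at 96 h, with a median log2 change of -0.64. Of 6 tested feeder fibroblast markers 4 were called higher, and all 7 summed to 19.6 to 20.4 TPM in DMSO, where Lum was below 0.1 TPM, and to 264 to 288 TPM at 96 h. Of 8 tested endoderm markers 4 were higher and 1 lower (summed 19.14 to 23.3 TPM in DMSO and 80.5 to 85.8 TPM at 96 h). Of these, 2 of the 6 feeder and 1 of the 8 endoderm markers passed the filter only through the 96 h libraries, which favours higher values there. None of 5 markers of 2-cell-like cells was called by limma (5 had an unadjusted p below 0.05), with sums of 93.2 to 101 and 143 to 167 TPM. At 96 h 3634 of all genes were called higher and 2228 lower, and 14552 had an unadjusted p below 0.05. In bulk RNA, fewer cells of a type and less RNA per cell cannot be told apart, and the part of these shifts in the changes of germline genes was not tested.

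Other genes of these pathways were taken from wider lists. Over all 17922 genes, 1819 were called higher and 360 lower at 24 h, and 3634 and 2228 at 96 h. Of 18 tested other meiosis genes (of 25 listed, with Shoc1 not analysed here), 3 were called higher at 24 h, Ccna1 (log2 change 1.72), Meiob (1.26) and Terb1 (1.00), and none lower. Of the 18, 4 passed the filter only through the 24 h libraries, which favours higher values there. At 96 h 9 of the 18 were called lower, led by Hsf2bp (-3.18), Ccnb1ip1 (-2.59) and Tex11 (-1.59), and none higher (17 had an unadjusted p below 0.05 by limma). Of 11 tested other piRNA pathway genes, Mybl1, a transcription factor of pachytene piRNA clusters, was called higher at 24 h (1.21), and at 96 h Henmt1, which methylates piRNA ends, was higher (1.05) and 5 were lower, led by Tdrd12 (-4.98, from 69.4 to 1.72 TPM), Morc1 (-3.98) and Pnldc1 (-2.21). Of the 11, 1 passed the filter only through the 96 h libraries. Of 10 germ cell specification genes none was called at 24 h (7 had an unadjusted p below 0.05) and 5 were lower at 96 h, led by Prdm14 (-3.03), Kit (-2.65) and Prdm1 (-2.15). An unadjusted p below 0.05 was held by 12582 of all 17922 genes at 24 h and by 14552 at 96 h.

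Genes that keep germline promoters silent were read the same way. Of 10 genes of DNA and H3K9 methylation 2 were called lower at 24 h, the DNA methyltransferase Dnmt3b (log2 change -1.04) and its partner Dnmt3l (-1.67), and 5 at 96 h, led by Dnmt3l (-3.11, from 483 to 55.5 TPM), Dnmt3b (-2.34) and the chromatin remodeller Hells (-2.22). Of 14 PRC1.6 genes none was called at 24 h (10 had an unadjusted p below 0.05 by limma, where 12582 of all 17922 genes did). At 96 h Pcgf6 (-1.50), L3mbtl2 (-1.13) and Mga (-1.11) were lower and Yaf2 (1.37) was higher. Over all 17922 genes, 1819 were called higher and 360 lower at 24 h, and 3634 and 2228 at 96 h.

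Nascent RNA was compared in TT-SLAM-seq, where FPKM is divided by the whole span of the gene and values of these genes were low. Of the 41, 6 passed the filter (at least 0.5 FPKM in at least 3 of 12 libraries), Tex19.1, Tex14, Syce2, Stag3, Dmc1 and Msh5, and Msh5 passed only through its 24 h libraries. Limma called none of the 6 at 2 h (6 had an unadjusted p below 0.05), against 0.127% higher and 0.0973% lower of 13357 genes, 1 lower and none higher at 6 h, against 0.374% and 0.195%, and none at 24 h (3 had an unadjusted p below 0.05), against 2.49% and 0.906%. An unadjusted p below 0.05 was held by 2830 of the 13357 genes at 2 h and by 6315 at 24 h. Tex19.1 was the call at 6 h, with 14.2, 16.7 and 9.83 FPKM in DMSO and 4.57, 6.29 and 4.79 FPKM (log2 change -1.28 ± 0.18 SE, adjusted p = 0.00683 by limma). At 24 h it had 7.10, 8.06 and 7.66 FPKM, still below every DMSO library, a log2 change of -0.77 that missed the size limit, and with libraries centred, which takes 0.24 off at 24 h, it was the 1 gene called (and 141 higher and 241 lower of all genes, in place of 333 and 121). Msh5 had 0.340, 0.306 and 0.300 FPKM in DMSO, 0.200, 0.182 and 0.129 at 2 h and 0.620, 0.698 and 0.638 at 24 h, where its log2 change of 0.50 on the scale with the added 0.5 stands beside a ratio of means of 2.07.

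The FPKM of TT-SLAM-seq could be turned back into whole reads, and a second test, limma's voom, was added after the data were seen. It tested 35 of the 41 among 19038 genes. For voom the libraries were scaled by their median ratio over genes, and not by the reads used for scaling FPKM. At 2 h voom called Smc1b (log2 change -1.77), Mei1 (-1.73) and Tdrd1 (-1.15) lower, against 1.39% of all genes, and none higher, against 0.641%. At 6 h it called Tex19.1 alone (-1.49), against 0.819% lower and 0.956% higher of all genes. At 24 h it called Brdt (1.35 ± 0.28 SE, adjusted p = 0.000736) and Tdrd7 (1.02) higher, against 6.34%, and Hormad1 (-1.41 ± 0.20, adjusted p = 1.10e-05), Tex19.1 (-1.17), Sycp1 (-1.17), Mei1 (-1.03), Piwil4 (-1.02) and Msh4 (-1.01) lower, against 6.5%. Hormad1 rested on 53, 73 and 79 reads in DMSO and on 77, 64 and 21 at 24 h, and Brdt on 13, 27 and 26 and on 139, 177 and 45. Rec8 rested on 14, 31 and 21 reads and on 99, 130 and 21, with a log2 change of 0.78 that was not called (adjusted p = 0.0592), and Stra8 on 21, 32 and 19 and on 67, 89 and 27, with 0.27. In nascent RNA Tex14 shares its strand with small nuclear and nucleolar RNA genes, and since reads were counted for every gene they overlap, its FPKM may include theirs.

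The shREPEATS line asks whether knockdown of ERV RNA changes the response. Of 29 tested genes, dTAG-13 against DMSO gave 1 higher and 3 lower, where 2.38% of 16166 genes were called higher and 1.44% lower, and with libraries centred, which takes 0.16 off, it gave none higher and 4 lower, and 246 higher and 353 lower of all genes in place of 385 and 232. The median log2 change was -0.10, against 0.14 for all genes. Stra8 had 3.68, 3.99 and 3.68 TPM in DMSO and 0.983, 0.933 and 0.745 TPM with dTAG-13 (log2 change -1.63 ± 0.14 SE, adjusted p = 2.17e-06 by limma). Hormad1 had 8.71, 9.06 and 8.82 TPM and then 2.57, 2.76 and 2.85 TPM (-1.54 ± 0.07, adjusted p = 2.23e-08). Tex19.1 had 27.5, 34.5 and 33.3 TPM and then 10.5, 11.7 and 11.0 TPM (-1.48 ± 0.08, adjusted p = 6.55e-08). For each of these 3 the treated libraries lay below all controls. Brdt, at 0.493, 0.447 and 0.249 TPM in DMSO and 1.48, 1.09 and 1.81 TPM with dTAG-13, was called higher (1.12), passed the filter only through the treated group, and lost the call without DMSO replicate 3, at 0.999.

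With Dox added, 3 genes were called higher than with dTAG-13 alone and none lower, where 1.49% of all genes were called higher and 1.96% lower (241 and 317, or 293 and 252 with libraries centred, which left the 3 calls). They were the same 3, Stra8 at 4.83, 4.89 and 7.12 TPM (log2 change 2.12 ± 0.14 SE, adjusted p = 3.24e-07 by limma), Hormad1 at 8.95, 9.50 and 9.62 TPM (1.61 ± 0.07, adjusted p = 1.40e-08) and Tex19.1 at 32.9, 30.4 and 31.3 TPM (1.47 ± 0.08, adjusted p = 7.96e-08). Each stood above all libraries with dTAG-13 alone. Without Dox replicate 3, Brdt and Dpep3 were called lower as well, but both passed the filter only through the dTAG-13 group, where they were high, which favours a fall from it. Their values with Dox were 0.497 ± 0.124 and 0.532 ± 0.115 TPM (SD, n = 3) against 1.46 ± 0.360 and 1.45 ± 0.111 without. Both comparisons share the dTAG-13 libraries. At an adjusted p below 0.05 alone, 12 of the 29 genes were lower and 7 higher with dTAG-13, where 12.8% and 41.2% of all genes were, and 12 were higher and 5 lower with Dox added, where 17.5% and 29.3% were. Brdt, Dpep3 and Tdrd1, among the 7 and again among the 5, passed the filter only through the dTAG-13 group, where they were high. That favours a rise with dTAG-13 and a fall from it. Since the dTAG-13 libraries enter both comparisons, a deviation of these libraries moves both in opposite directions. Among the 12 were Hormad2, with means of 6.49 TPM in DMSO, 3.22 with dTAG-13 and 6.44 with both agents, and Zcwpw1, with 11.1, 6.49 and 11.7 TPM. Set against the time course at 24 h by an interaction term in limma, the effect of dTAG-13 was lower in the shREPEATS line for 6 of 33 germline genes, where it was for 6.61% of 17653 genes, and higher for none, where it was for 2.11%.

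With dTAG-13 and Dox against DMSO no gene of the 29 was called by limma, and 2 had an unadjusted p below 0.05, against 2911 of all 16166 genes. Of those 16166, 0.00619% were called higher and 0.0124% lower. A missed threshold does not show equal levels. For Hormad1 the 3 libraries with both agents, at 8.95 to 9.62 TPM, and those in DMSO, at 8.71 to 9.06 TPM, overlapped. ESC markers moved with these groups, with 6 of 7 called lower on dTAG-13, a sum of 807 to 912 TPM in DMSO, 410 to 417 with dTAG-13 and 869 to 886 with Dox. So did the 5 markers of 2-cell-like cells, 4 of them called higher, with 77.6 to 89.4, 197 to 227 and 91.6 to 95.8 TPM. Feeder fibroblast markers summed to 96.5 to 117 TPM over all 9 libraries and none of 5 tested was called by limma, but at an adjusted p below 0.05 alone 1 was higher and 2 lower with dTAG-13, and 3 higher and 1 lower with Dox added. Of 5 tested endoderm markers Sox17 was called higher with dTAG-13 (log2 change 2.05) and lower with Dox added (-1.73), and all 9 summed to 18.9 to 21.1, 24.0 to 27.1 and 18.5 to 21.2 TPM. Of these 5, 2 passed the filter only through the dTAG-13 libraries, which favours higher values there. Over all 16166 genes, 385 were called higher and 232 lower with dTAG-13, and 241 and 317 with Dox added. The part of any of these marker shifts in the germline genes was not tested.

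**Figure D4:**
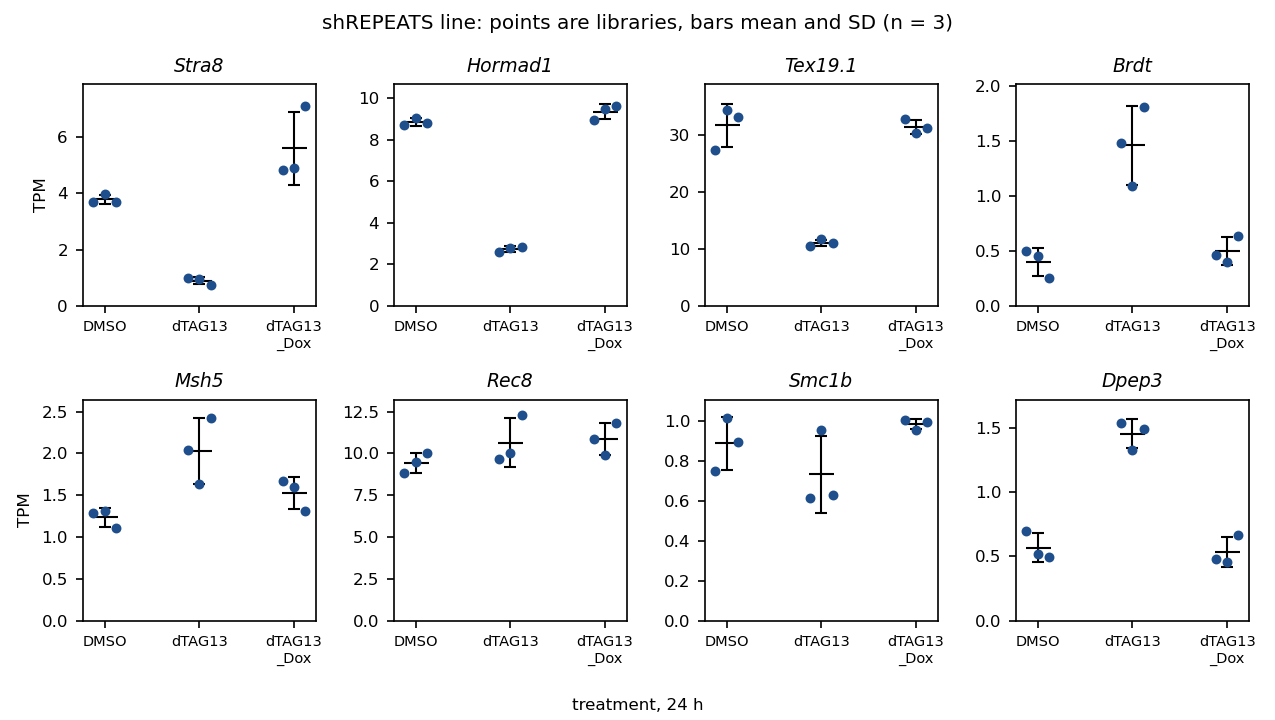
TPM in each library of the shREPEATS line, on a linear axis from 0, for 8 germline genes under DMSO, dTAG-13 and dTAG-13 with Dox, with points for libraries and bars for mean and SD (n = 3). Stra8, Hormad1 and Tex19.1 are low in the dTAG-13 group alone, Brdt, Dpep3 and Msh5 have their highest mean there, and the groups of Rec8 and Smc1b overlap.

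Line and cell type were compared next. Between parental and TRIM28-FKBP mESCs in DMSO, 1 of 31 tested genes was called higher in the parental line and 6 lower, where 2.25% of 17458 genes were called higher and 9.15% lower, and centring, which adds 0.19 to each change, left 1 higher and 3 lower (Hormad2, Sycp2 and Tdrd7), and 624 higher and 1161 lower of all genes in place of 393 and 1598. Tex14 was higher, with 26.9, 26.2 and 26.2 TPM against 11.2, 11.0 and 11.0 (log2 change 1.22 ± 0.11 SE, adjusted p = 9.75e-06 by limma). Tdrd7 was lowest relative to the tagged line, with 0.782, 0.449 and 0.625 TPM against 2.95, 3.39 and 3.41 (-1.75 ± 0.11, adjusted p = 8.39e-07), and Hormad2 had 4.56, 4.14 and 4.33 TPM against 11.3, 12.2 and 12.4 (-1.36). The other 4 were Sycp2 (-1.30), Tex19.2 (-1.06), Sycp1 (-1.04) and Prdm9 (-1.02), with Prdm9 no longer called without DMSO replicate 3 (-0.70), parental replicate 1 (-0.995) or parental replicate 2 (-0.97) and Sycp1 without parental replicate 2 (-0.96). Feeder markers were at 99.1 to 102 TPM in the parental line, with 5 of 6 tested called higher, and markers of 2-cell-like cells at 7.16 to 7.81 TPM, with 5 of 5 called lower. Of the 6 feeder markers, 1 passed the filter only through the parental libraries. Labels mention feeders for the parental cells, and tag, culture and vehicle cannot be told apart.

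In NPCs nearly all of these genes were lower. Of 31 tested, 27 were called lower and 2 higher than in TRIM28-FKBP mESCs, where 20.7% of all genes were called lower and 25.9% higher, and the median log2 change was -2.84 against 0.15 for all genes, on a scale where the added 0.5 bounds the change of genes listed at 0. Centring, which takes 0.40 off, left 27 lower and 1 higher, without Prdm9, and 3302 higher and 4910 lower of all genes in place of 4522 and 3608. In each NPC library 22 of the 41 stayed below 0.1 TPM. Sycp3, Syce1, Hormad1, Mael, Mov10l1, Stk31, Tex19.2, Dpep3, Tex101, Piwil1 and Asz1 were listed at 0 in all 3, so no fold is given for them. Tex19.1 was listed at 0, 0.0484 and 0.0751 TPM and Ddx4 at 0.205, 0.136 and 0.187 TPM, against means of 94.3 and 28.6 in mESCs. A few were kept, with 9 of the 41 at a mean of at least 1 TPM. Tdrd7 was higher, at 40.4, 36.4 and 37.8 TPM (log2 change 3.37 ± 0.11 SE, adjusted p = 1.25e-09 by limma), and so was Prdm9, at 5.44, 5.81 and 6.602 TPM (1.21 ± 0.23, adjusted p = 0.000713). Syce2 (19.4 TPM), Zcwpw1 (11.4), Tex15 (8.71), Stag3 (5.14), Msh5 (3.06), Rec8 (1.64) and Sycp1 (1.43) made up the rest.

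**Figure D5:**
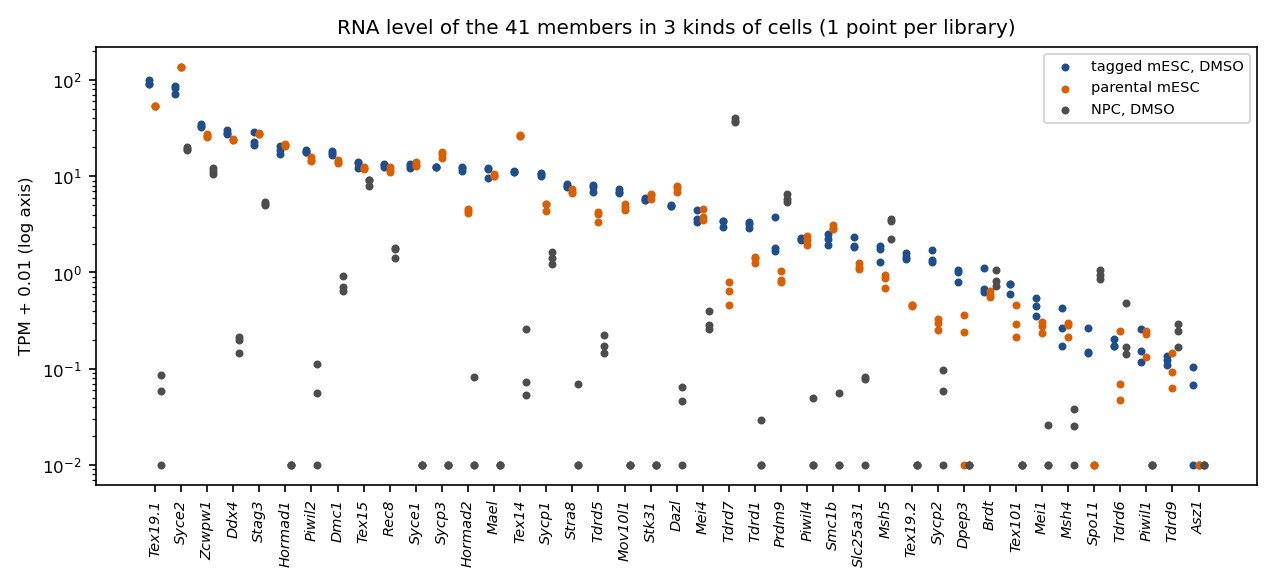
TPM + 0.01 on a log axis for each of the 41 germline genes, with a point per library for TRIM28-FKBP mESCs in DMSO (blue), parental mESCs (orange) and NPCs (grey), ordered by the mean in DMSO. Grey points lie below the others for most genes, points at 0.01 are listed at 0 TPM, and Tdrd7 has the highest NPC level, at a mean of 38.2 TPM.

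H3K9me3, the mark that TRIM28 helps to lay at ERVs, was searched within 5 kb of the 41 gene starts. Since deposited peaks per H3K9me3 library varied from 11474 to 147611, the 10000 peaks of highest fold enrichment per library were used and a peak had to occur in at least 2 libraries of a group. In DMSO none of the 41 starts had such a peak, where 1.97% of 21938 protein-coding starts did. After 24 h of dTAG-13 the start of Ddx4 did, against 1.19% of starts, and that count was 0 without replicate 1 or without replicate 2. Its peaks were chr13:112652705-112652896 and chr13:112652415-112653353, with fold enrichments of 3.53 and 4.39 over the caller's background, and a DMSO library had one of 3.86 at chr13:112652360-112653095. Over all deposited peaks, 12 starts had one in DMSO (Brdt, Dazl, Ddx4, Dpep3, Mael, Mei1, Slc25a31, Spo11, Stag3, Syce1, Sycp1 and Tex101), against 12.9% of starts, and 2 with dTAG-13 (Ddx4 and Mei1), against 5.96%. Hormad1, Stra8, Tex19.1, Msh5 and Rec8 were in neither set. By library, 13, 16 and 10 of the 41 starts had a deposited peak in DMSO, against 15.1%, 14.5% and 12.4% of starts. In dTAG-13 replicates 1, 2 and 3 there were 1, 10 and 2, against 1.24%, 8.46% and 8.67%. The library with 11474 peaks was dTAG-13 replicate 1, so the count with dTAG-13 depends on unequal libraries. These are counts of peaks and carry no test.

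Marks of transcription were called at few of these starts. H3K27Ac, found at active promoters and enhancers, was near 7 of the 41 starts in DMSO (Msh4, Msh5, Prdm9, Syce2, Tdrd9, Tex14 and Zcwpw1), against 28.7% of protein-coding starts, and near 5 after 24 h, against 21.2%. RNAPII was near 9 in DMSO (Dmc1, Hormad2, Msh4, Msh5, Tdrd1, Tdrd9, Tex14, Tex19.1 and Zcwpw1), against 31.7%, and near all of these but Hormad2 after 24 h, against 22.1%. The RNAPII libraries after 24 h held fewer than 10000 peaks (8182 and 7689), so all their peaks were used. The lowest fold enrichments used were 1.48 and 1.19 there and 5.52 and 5.30 in DMSO, so the RNAPII counts were made at unlike cut-offs. MED23, a Mediator subunit, was near 5 in DMSO (Msh5, Stag3, Tex14, Tex19.1 and Zcwpw1), against 18.9%, and near Zcwpw1 only after 24 h, against 10.1%. For MED23 the lowest fold enrichments used were 10.3 and 9.95 in DMSO and 4.37 and 4.44 after 24 h. For H3K27Ac they were 5.94, 6.30 and 6.29 in DMSO and 4.71, 6.65 and 3.86 after 24 h. The counts for these marks were therefore also made at unlike cut-offs. At Msh5, Msh4, Tdrd1 and Tdrd9 the H3K27Ac or RNAPII peaks can lie over 2 kb away and may belong to a neighbouring gene.

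Tex19.1 and Zcwpw1 had the RNAPII peaks of highest fold enrichment among these starts in DMSO. For Tex19.1 it was 33.3 and 28.2 in the 2 DMSO libraries, at ranks 320 and 417 of 19853 and 19194 peaks. After 24 h it was 5.54 and 4.42, at ranks 3592 and 5428 of 8182 and 7689, so that the ranks come from lists of unequal length. Zcwpw1, whose RNA had not been called at 24 h, had 31.6 and 31.9 in DMSO and 8.99 and 8.16 after 24 h, at ranks 355 and 328 and then 1235 and 1291. At Msh5, whose RNA was called higher at 24 h, the values were 13.3 and 11.7 in DMSO and 6.88 and 7.42 after 24 h, and at Dmc1 10.1 and 10.2 and then 4.39 and 4.29. All 8 genes with RNAPII peaks in both groups had lower fold enrichments after 24 h. The peaks counted for Msh5 lay 4491 to 4602 bases from its start, those for Tdrd9 4437 to 4564 and those for Tdrd1 3593 to 3726. They may belong to neighbouring genes, and the RNA of Msh4 and Tdrd9 was too low to be tested. How these peaks relate to the RNA of the 8 genes was not tested. Fewer peaks were deposited for every RNAPII library with dTAG-13, the peaks carry no scaling between libraries, and with 2 libraries per group no test was run.

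Over all comparisons with dTAG-13 or Dox on log2(TPM + 0.5) or log2(FPKM + 0.5), 25 of the 41 genes were called at least once, that is 25 of 33 tested, where 40.3% of 21090 genes tested in any of these 11 comparisons were. All 33 were tested in the time course, where 17922 of the 21090 were. The 2 shares therefore rest on unequal numbers of comparisons per gene, which were not matched. A further 8 were tested and never called, and 8 were not tested in the time course. The 8 never called were Dazl, Ddx4, Slc25a31, Stk31, Syce1, Sycp2, Tdrd1 and Tex15. Not all of them were steady. Syce1 had means of 12.7 TPM in DMSO and 6.37 TPM at 24 h (log2 change -0.95, adjusted p = 1.40e-07 by limma). Sycp2 had 1.44 TPM in DMSO and 0.519 TPM at 96 h, and Tdrd1 had 2.62 TPM at 24 h and 4.92 TPM at 96 h. Ddx4 held between 19.6 and 30.1 TPM over the 15 libraries of the time course, and Tex15, which acts with PIWI proteins in transposon methylation, between 8.02 and 15.5 TPM. Slc25a31, the ADP/ATP carrier of the testis, lay between 1.08 and 2.58 TPM, and Dazl, a translational regulator, between 2.55 and 5.61 TPM.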

How the data were processed

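The series measured RNA, nascent RNA and chromatin of mouse cells against the mm10 genome. StringTie tables, one for each RNA-seq library, were deposited by the authors (cutadapt 2.4, STAR 2.7.5a and StringTie 2.0.6, per the submitters' processing notes). They give TPM as the authors deposited it, scaled by length and library, and read coverage per base, a deposited signal that is not scaled by depth. For TT-SLAM-seq the authors deposited FPKM of reads with T>C conversions, after removal of rRNA reads and SLAM-DUNK alignment, counted by strand for every gene a read overlaps and divided by the span of the gene. For ChIP-seq the authors deposited peaks called in each library, with fold enrichment over the caller's background (a ratio) and -log10 p and q within that library. No column held a comparison by the authors. Hi-C and single-cell data were not used here.

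The tables were read as deposited, and repeated gene IDs of a StringTie table were summed. Values were compared as log2(value + 0.5) with limma 3.58.1 (lmFit and eBayes with trend, R 4.3.3), in a separate fit for TT-SLAM-seq (12 libraries), the RNA-seq time course (15), the shREPEATS line (9) and the lines (9). Genes needed at least 0.5 FPKM or 1 TPM in at least 3 libraries of the fit. Groups follow the labels. p-values were adjusted over all genes tested (Benjamini-Hochberg), and a gene was called where this value lay under 0.05 and the values differed over 2-fold. The scripts were tested on simulated data. In TT-SLAM-seq, 98.0 to 98.7% of low values (at most 20 reads) were within 0.1 of a whole read once scaled back, and voom was run on those reads for genes with at least 10 reads in at least 3 libraries. Library sizes for voom came from median ratios over these genes. Peaks were matched to gene starts within 5 kb in Python 3.11.15 with pandas 2.3.3.

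The 41 genes, the other lists and the markers were chosen with earlier results of these data known. Genes called in a comparison and without overlap between its groups were described by library, at most the 8 of largest change, at most 3 per direction were named from other lists, and at most 6 promoters could be printed. Msh4, Mei1, Mael, Stag3, markers called at 24 h, RNAPII peaks and genes below the size limit under Dox were named after their values were seen. Alternatives were a pseudocount of 0.1 or 1, no filter, a mean of at least 5, libraries centred on their median, 1 library left out, the replicate number as a block and, for peaks, all peaks, the 5000 strongest or 1 kb. Library size limits the precision of low genes, and StringTie tables hold no reads, so no counting interval is given for TPM.

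Replicate numbers are shared between groups. Deviations of same-numbered libraries correlated at -0.20 to 0.18, and over 0.1 in 1 of 9 pairs of groups for the lines, 1 of 30 for the time course, 0 of 9 for the shREPEATS line and 3 of 18 for TT-SLAM-seq, so the numbers were not taken to pair the samples.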

Additional observations from a re-analysis of the deposited data

Results flagged for a closer look

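The effect of 24 h of dTAG-13 was set side by side in the time course and in the shREPEATS line without doxycycline in its group name, and the difference was tested by limma with an interaction term over 17653 genes. Of 33 tested germline genes 6 had a lower effect in the shREPEATS line (adjusted p below 0.05 and more than 2-fold), where 6.61% of all genes did, and none had a higher one, where 2.11% did. Stra8 had a log2 change of 0.26 in the time course and -1.63 in the shREPEATS line, a difference of -1.89 ± 0.12 (SE, adjusted p = 5.96e-07 by limma). Msh5 had 2.32 and 0.53, a difference of -1.79 ± 0.21 (adjusted p = 2.88e-05 by limma). For the cohesin genes Smc1b, Rec8 and Stag3 the differences were -1.42 (adjusted p = 0.000139 by limma), -1.37 (2.97e-06) and -1.17 (2.88e-05), from 1.24, 1.53 and 0.74 in the time course and -0.18, 0.16 and -0.44 in the shREPEATS line. Dpep3 had 2.20 and 0.87, a difference of -1.33 (6.68e-05). The time course used polyadenylated RNA and the shREPEATS line total RNA, and the line, the RNA fraction and any doxycycline given before treatment cannot be told apart.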

How the results depend on the processing

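Of 89 called changes of germline genes, recomputed to 1020 values under the alternatives, 997 kept their direction and their side of the thresholds, 23 missed a threshold and 0 turned direction. Of the 23, 9 came with a pseudocount of 1, 6 with centred libraries and 8 without 1 library. With a pseudocount of 0.1 the counts of called genes moved at 6 h (1, Prdm9) and for dTAG13_Dox against dTAG13 (5), and with a pseudocount of 1 for parental against tagged cells (3). A mean of at least 5 left fewer genes to call, 3 at 24 h, 2 for shREPEATS dTAG13 against DMSO, 4 for parental and 16 for NPC. Centred libraries gave 1 in TT-SLAM-seq at 24 h and 4 for parental. The voom test, added after the data were seen, called 3 in TT-SLAM-seq at 2 h and 8 at 24 h, over 35 genes in place of 6 and with libraries scaled by their median ratio. Leaving out 1 library gave 0 to 1 at 6 h, 7 to 8 at 24 h, 19 to 20 at 96 h, 3 to 5 for dTAG13_Dox against dTAG13, 5 to 7 for parental and 27 to 29 for NPC. With a replicate block the counts were those without it in all 13 comparisons (7 at 24 h and 20 at 96 h). Starts with a peak, over all deposited peaks, were 12 in DMSO and 2 with dTAG-13 for H3K9me3, 19 and 10 for H3K27Ac, 14 in DMSO for RNAPII, and 28 and 9 for MED23. With the 5000 strongest peaks they were 0 with dTAG-13 for H3K9me3, 3 with dTAG-13 for RNAPII, and 2 and 0 for MED23. Within 1 kb they were 4 and 2 for H3K27Ac and 5 with dTAG-13 for RNAPII. Without 1 library they were 0 to 1 with dTAG-13 for H3K9me3 and 2 with dTAG-13 for MED23, where the 1 remaining library could only be asked for a peak in itself, so that the requirement changed too. Apart from the mean of at least 5 and that requirement, the cause of these shifts was not tested. The 8 genes that did not reach 1 TPM in 3 libraries of the time course, and 35 of the 41 on the FPKM scale of nascent RNA, did not pass the filters on TPM and FPKM, whereas voom tested 35.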
